A study of Mus musculus with 6 samples.

Results

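Pgbd5 and Nckap5 are 2 protein-coding mouse genes. Their introns held 76 of the 1231 peaks (6.17%) called enriched, read here as ZFP36L2 antibody over control antibody. The peaks described here were chosen by gene name, as every peak of the authors' deposited table that carried Pgbd5 or Nckap5 among its names. That gave 145 of 55449 peaks (0.262%), with 77 for Pgbd5 and 68 for Nckap5. The genes were picked because earlier results of the same table had shown many enriched peaks in them, so their fold changes and calls are described here without a test. None of the 145 peaks carried a second gene name, and all lay inside the RefSeq span of their gene, on its strand.

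The study crosslinked MLTC-1, an established mouse line that grew from a Leydig tumour of the testis, with ultraviolet light of 254 nm at 400 mJ per cm2, and all its libraries came from this 1 line with no change of genotype. The assay was eCLIP, in which an antibody recovers a protein with the RNA fixed to it and the RNA fragments are sequenced. Antibody ab70775, raised against ZFP36L2, gave 2 immunoprecipitation (IP) libraries and 2 inputs. Rabbit IgG ab313801, the negative control, gave 1 IP library and 1 input, the inputs serving as background for all proteins per the labels. For each peak the authors' deposited table lists a log2 fold change, read here as ZFP36L2 over IgG from how the table is titled, with raw and adjusted p-values. The table has no value per library, so the depth is unknown and no spread between libraries can be given. A peak is called enriched when its adjusted p is under 0.05 and its log2 value is 1 or more, and depleted when its adjusted p is under 0.05 and its log2 value is -1 or less.

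ZFP36L2 is a CCCH zinc finger protein of the family that binds AU-rich elements, mostly known from 3′ UTRs, and brings the bound mRNA to decay. Introns are removed from the primary transcript in the nucleus, so RNA recovered from an intron belongs to unspliced or excised RNA and not to the mature mRNA. Pgbd5 encodes a vertebrate protein derived from a piggyBac transposase, best known from nervous tissue. Nckap5 encodes a protein named for its association with the NCK adaptors, which link receptor signals to actin, and its relative Nckap5l is known from human cells as a centrosome and microtubule plus-end protein.

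Peaks record which RNAs were recovered and not how much of each the cells hold, and in pooled cells fewer cells with a transcript and less of it per cell cannot be told apart. Of 13 Leydig cell markers, 8 had a peak, among them Cyp11a1, Star, Lhcgr and Nr5a1, whereas Cyp17a1, Hsd3b1, Hsd3b6, Hsd17b3 and Insl3 had none. Peaks were present for 2 of 13 neuron markers, Map2 and Nefl, and Snap25, Syt1 and Rbfox3 had none. All 11 cardiac muscle markers and all 5 macrophage markers had peaks, as did 1 of 6 Sertoli and 1 of 6 germ cell markers. The cardiac muscle markers held 790 peaks, of which 566 were in Ttn and 117 in Ryr2. The Leydig markers held 108 and the macrophage markers 29. What part other cells have in the Pgbd5 and Nckap5 peaks was not tested.

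Both genes lie on the minus strand, so that the order of rising coordinates runs against transcription, towards the start of the gene. Pgbd5 (ENSMUSG00000050751.14) spans 124369049 to 124433936 on chromosome 8, 64.9 kb, and Nckap5 (ENSMUSG00000049690.15) spans 125913636 to 126830796 on chromosome 1, 917.2 kb, in RefSeq on GRCm38.p6, the assembly behind build mm10. The start regions are shown because the enriched peaks reached towards them. For Nckap5, 2 RefSeq starts were used, which lie 337.7 kb apart with no peak between them. The distal one, at 126830632, lies inside the RefSeq span of the gene, which runs on to 126830796. Each sequence has 70 bases before the annotated start in lower case and the first 30 bases from the start in capitals, 5′ to 3′ on the minus strand.
Pgbd5, chr8:124433907-124434006: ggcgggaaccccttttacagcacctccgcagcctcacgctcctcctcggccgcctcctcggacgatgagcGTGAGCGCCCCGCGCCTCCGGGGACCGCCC
Nckap5, start nearest the peaks, chr1:126492898-126492997: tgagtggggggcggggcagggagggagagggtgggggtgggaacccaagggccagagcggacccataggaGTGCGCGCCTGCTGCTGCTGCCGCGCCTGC
Nckap5, distal start, chr1:126830603-126830702: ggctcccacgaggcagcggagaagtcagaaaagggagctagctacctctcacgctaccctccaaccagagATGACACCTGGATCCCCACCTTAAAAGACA

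The 300-base RefSeq window around the Pgbd5 start was 75.3% G and C with 43 CpG dinucleotides, and 96.4% of the 32851 such windows had a lower G and C content. The Nckap5 window nearest the peaks was 61.7% G and C with 8 CpG, and that of the distal start 52.3% with 12. Across all windows the median was 52.7% G and C with 7 CpG. None of the 3 windows held TATAAA on either strand, which 13.6% of all windows did. No peak of the table overlapped any of the 3 windows.

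Pgbd5 had 50 of its 77 peaks enriched and none depleted, against 2.22% of all peaks enriched and 5.44% depleted. The median log2 fold change of its peaks was 3.19 per the authors' deposited table, with a range of -1.22 to 6.32, beside a median of -1.06 over all 55449 peaks. Of the 77 peaks, 73 were intronic, and these held all 50 enriched ones, where 2.17% of the 23461 intronic peaks of the series were enriched. The 3 coding peaks and the 3′ UTR peak were not called. The 4 exonic peaks had values below 0, as did 76.2% of all peaks, whereas 72 of the 73 intronic peaks had values above 0. In the authors' deposited table, the coding peaks had log2 fold changes of -1.22, -0.75 and -0.34, and the 3′ UTR peak, at 124370374 to 124370415, had -0.59, all with an adjusted p of 1.

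Along Pgbd5 the stretch from the first to the last enriched peak is called the territory here, and it is 1 stretch by definition. This territory ended well before the 3′ end of the gene. Its bounds are set by the calls, and by call the peaks of the gene formed 22 rows. The first 12 peaks in order of start, from 124370374 to 124386864, contained no called peak, and their log2 fold changes ran from -1.22 to 1.12 with a median of 0.66 per the authors' deposited table. From the first enriched peak, at 124390695, to the last, at 124433688 to 124433759, there were 65 peaks, of which 50 (76.9%) were enriched with a median over the 65 of 3.68 per the authors' deposited table. The other 15 peaks of that territory were interspersed among the enriched ones and also stood above 0, at 0.43 to 2.35 per the authors' deposited table. All 5 Pgbd5 peaks below 0 lay outside the territory, between it and the 3′ end.

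At the edge of the territory nearest the 3′ end, enriched and uncalled peaks were mixed. The peak at 124386857 to 124386864 had a value of 0.71 (adjusted p = 1) per the authors' deposited table, and the next, 3830 nucleotides closer to the start of the gene at 124390695 to 124390738, had 2.97 (adjusted p = 8.5e-09). The 2 peaks after it were again uncalled, at 1.41 (adjusted p = 0.74) and 0.43 (adjusted p = 1), and so were those at 124393891 to 124393955, with 1.35, and at 124396223 to 124396244, with 0.95, by the authors' deposited table. Over the 10 peaks lying 40 to 50 kb from the start, 3 were enriched and the median was 0.80 per the authors' deposited table. At 30 to 40 kb, 17 of 25 peaks were enriched with a median of 3.19 per the authors' deposited table. The medians then varied little up to the start: 4.15 at 20 to 30 kb, 3.87 at 10 to 20 kb and 3.85 within 10 kb, with 15 of 18, 7 of 8 and 8 of 9 peaks enriched, per the authors' deposited table. Farther than 50 kb from the start none of 7 peaks was called. Across the 77 peaks the correlation of log2 fold change with distance from the start was -0.61, a description only, since the peaks share their transcript and libraries.

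**Figure D1:**
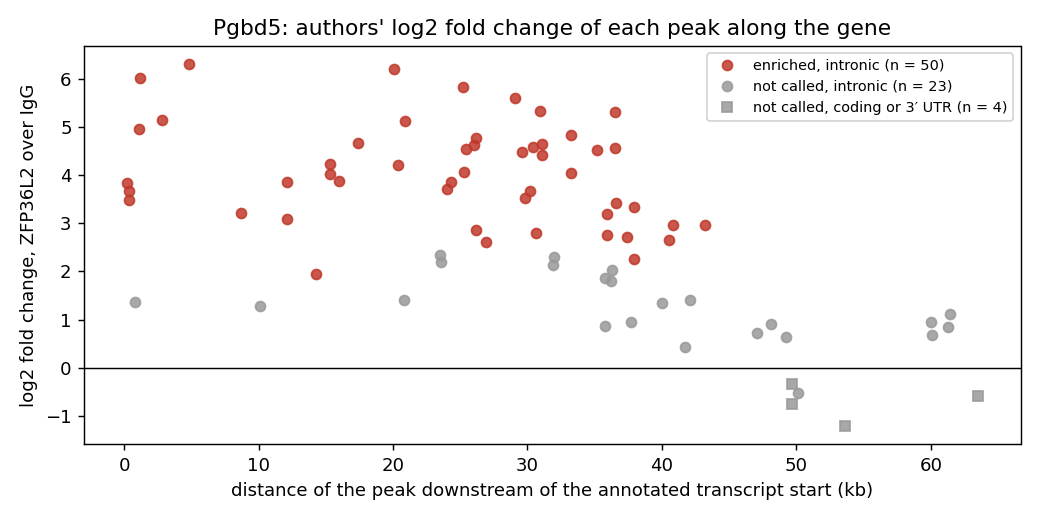
Log2 fold change of ZFP36L2 over IgG for each of the 77 Pgbd5 peaks (points) against its distance in kb downstream of the annotated start, coloured by call. All 50 enriched peaks lie within 43.2 kb of the start, and the 4 exonic peaks (squares) lie below 0.

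The longest unbroken row of enriched Pgbd5 peaks held 18 peaks in 7.1 kb, from 124402765 to 124409904. Within it, the peak at 124404805 to 124404883 had the smallest adjusted p of the gene, 2.3e-37, beside a fold of 5.62 on the log2 scale per the authors' deposited table, and ranked at position 74 of all peaks by p. The peak at 124408639 to 124408695 had 5.85 (adjusted p = 4.1e-24) per the authors' deposited table. The lowest value of this row was 2.62 and its median 4.46 per the authors' deposited table. The median of the gene's uncalled peaks was 0.95, which any enriched peak exceeds by the definition of the call. A second row of 9 enriched peaks ran from 124413411 to 124421852. It included the peak at 124413770 to 124413838, with 6.21 (adjusted p = 1.9e-32), and the weakest enriched fold of the gene, 1.94 (adjusted p = 0.039) at 124419571 to 124419611, per the authors' deposited table.

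The largest log2 fold changes stood both near the start of Pgbd5 and in the middle of the territory. The highest, 6.32 (adjusted p = 5.0e-34) at 124429132 to 124429174, lay 4.8 kb from the start and ranked at position 8 of the whole of the authors' deposited table by fold. The 2 touching peaks at 124432747 to 124432780 and 124432781 to 124432856 had 6.03 (adjusted p = 2.2e-29) and 4.97 (adjusted p = 1.9e-30) per the authors' deposited table, 1.1 to 1.2 kb from the start. The peak closest to the start, 177 nucleotides downstream of it, had 3.85 (adjusted p = 2.7e-31) per the authors' deposited table. Between them, the peak at 124433052 to 124433091 had 1.36 and an adjusted p of 1 per the authors' deposited table. High and uncalled peaks therefore stood side by side at this end of the gene.

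Neighbouring peaks differed as sharply inside the territory. The peak at 124412977 to 124413030 had 5.14 (adjusted p = 3.9e-20), and the next one, 17 nucleotides on at 124413048 to 124413117, had 1.41 (adjusted p = 0.54), per the authors' deposited table. Per the authors' deposited table, a row of 3 touching peaks from 124397341 to 124397460 had 3.42, 4.58 and 5.32 in that order, with adjusted p-values of 2.9e-14, 3.3e-27 and 3.9e-34. The next peak, 186 nucleotides away and 5 nucleotides wide, had 2.03 (adjusted p = 0.34) per the authors' deposited table. In all, 26 Pgbd5 peaks reached 4 on the log2 scale and 9 reached 5, per the authors' deposited table. A value of 4 or more was thus held by 33.8% of the Pgbd5 peaks, against 0.665% of the intronic peaks of the whole series.

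Size of fold and strength of the call were related but not interchangeable. At nearly equal folds, the peak nearest the start (3.85) and the one at 124421801 to 124421852 (3.86) differed in adjusted p, which per the authors' deposited table was 2.7e-31 for the first and 3.6e-09 for the other. The enriched peak with the largest adjusted p of the gene, 0.048, had a fold of 2.26, while the uncalled peak just outside the threshold, at 124410347 to 124410394, had 2.35 with an adjusted p of 0.05 after rounding, per the authors' deposited table. The read counts that would show how deeply each peak was covered are not among the values used here.

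**Figure D2:**
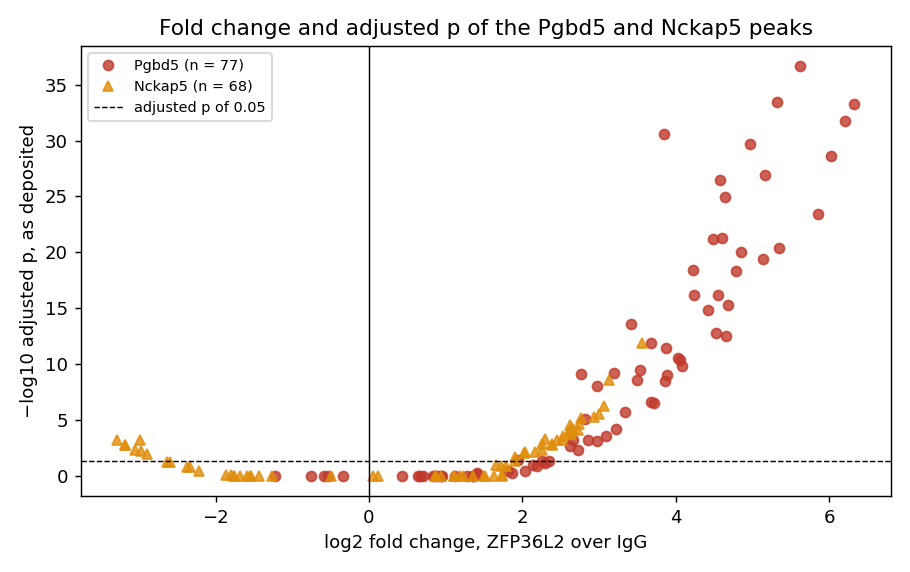
Log2 fold change of ZFP36L2 over IgG (horizontal) against the deposited −log10 adjusted p (vertical) for the 77 Pgbd5 peaks (circles) and the 68 Nckap5 peaks (triangles), with the threshold of 0.05 as a dashed line. Pgbd5 reaches folds of 6.32, Nckap5 stays between -3.28 and 3.56 and is called on both sides.

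Nckap5 had 26 of its 68 peaks enriched and 7 depleted (38.2% and 10.3%), against 2.17% and 7.04% of all intronic peaks. All 68 were intronic. Their log2 fold changes ran from -3.28 to 3.56 with a median of 1.50 per the authors' deposited table. None reached 4, so the enriched peaks of Nckap5 were smaller in fold than those of Pgbd5, the medians per the authors' deposited table being 2.61 and 4.04. The peaks were also much sparser, at 0.74 per 10 kb of gene for Nckap5 and 11.87 for Pgbd5. The value for Nckap5 is over its full RefSeq span of 917.2 kb. That span includes the 337.7 kb between its 2 starts, which held no peak, so a shorter transcript would give a higher density.

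The direction of the Nckap5 peaks changed in blocks along the gene. In order of start, the 68 signs formed 5 rows: 6 peaks above 0, 2 below, 30 above, 21 below and 9 above. Every enriched peak fell in the 30-peak or the last block, and every depleted peak in the 21-peak block between them. By definition no block could hold calls of both directions, since all peaks of a block share the same sign.

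The part of Nckap5 farthest from its start had no call. The first block, from 125927904 to 125968827, had 6 peaks with a median of 1.24, and the 2 peaks below 0 at 125977455 to 125977504 had -1.76 and -2.22, per the authors' deposited table. The 30-peak block, 241.0 kb long from 126014238 to 126255235, began with 9 further uncalled peaks, up to 126114062. Together these first 17 peaks ranged from -2.22 to 1.73 with a median of 1.11 per the authors' deposited table. The lncRNA gene Gm35562 lies within this stretch on the plus strand, from 126045696 to 126102550. Of the Nckap5 peaks, 4 fell inside its span, none of them called, and no peak carried its name.

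Enriched peaks began at 126139276 and went on, with 4 uncalled peaks among them, to 126255235. There were 17 in the block, which as a whole had a median of 2.31 and a highest value of 3.07 (adjusted p = 6.0e-07, at 126206035 to 126206042) per the authors' deposited table. The 10 enriched peaks from 126187696 to 126255235 stood in an unbroken row over 67.5 kb, with values of 2.17 to 3.07 per the authors' deposited table. Over this long stretch the folds were close to each other although neighbouring peaks lay up to 35865 nucleotides apart.

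The block of peaks below 0 that held the depleted ones followed with no intermediate peak. The last enriched peak of the 30-peak block, at 126255180 to 126255235, had 2.17 (adjusted p = 0.0076) per the authors' deposited table. The next, 8.1 kb away at 126263373 to 126263406, had -2.99 (adjusted p = 6.5e-04) per the authors' deposited table. It was the first of 4 depleted peaks in a row, the lowest being -3.28 (adjusted p = 6.6e-04) at 126267669 to 126267712 per the authors' deposited table.

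From there, 21 peaks over 112.3 kb, up to 126375630, all stood below 0, where 80.4% of all intronic peaks stood. The median of the 21 was -2.34, against -1.31 for all intronic peaks, and their highest value was -0.50, per the authors' deposited table. Of them 7 were depleted, also at 126312178 to 126312243 (-2.89, adjusted p = 0.012) and in a touching pair at 126366069 to 126366126 (-3.05 with an adjusted p of 0.0046, and -3.18 with one of 0.0019), all per the authors' deposited table. The uncalled peaks of the block included -2.64 (adjusted p = 0.06) and -2.59 (adjusted p = 0.065) per the authors' deposited table, just outside the threshold.

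The return was as abrupt. The last peak of the block, at 126375620 to 126375630, had -1.76 (adjusted p = 1), and the next, 14.7 kb on at 126390356 to 126390369, had 2.29 (adjusted p = 5.4e-04), per the authors' deposited table. All 9 peaks from there to 126482678 were enriched, with values of 1.91 to 3.56 per the authors' deposited table. The peak nearest the start, at 126482617 to 126482678, was the strongest of the gene by both fold and adjusted p (3.56, adjusted p = 1.4e-12), followed by 3.13 (adjusted p = 2.6e-09) at 126470021 to 126470078, per the authors' deposited table. The weakest call was the peak at 126446171 to 126446209 (1.91, adjusted p = 0.022), and an equal fold of 1.91 at 126171435 to 126171448 missed the threshold with an adjusted p of 0.051, per the authors' deposited table.

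**Figure D3:**
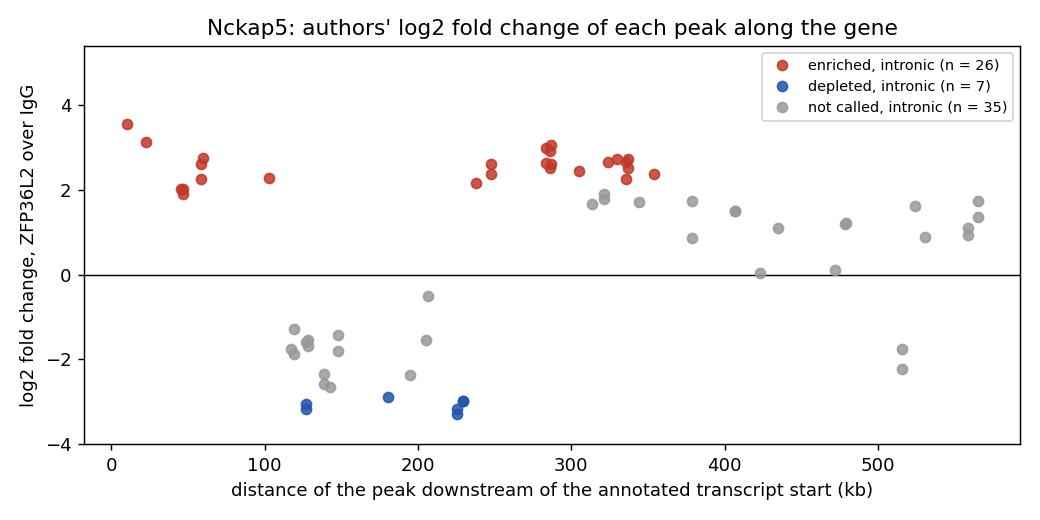
Log2 fold change of ZFP36L2 over IgG for each of the 68 Nckap5 peaks (points) against its distance in kb downstream of the annotated start nearest the peaks, coloured by call. The 7 depleted peaks lie between 126.8 and 229.5 kb, in a block of 21 peaks below 0 that has enriched peaks on both sides.

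The peak closest to the start of Nckap5 lay 10.2 kb downstream of the nearer RefSeq start, at 126492927. Between that start and the distal one at 126830632, a stretch of 337.7 kb, the table held no peak of Nckap5 and none of any other gene. All 68 peaks thus fell within the part of the gene that a transcript from the nearer start would cover. Which start these cells use was not tested.

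The width of the peaks differed between the genes. Pgbd5 peaks had a median width of 40 nucleotides (range 4 to 98) and Nckap5 peaks of 25.5 (range 7 to 66), against 33 for all intronic peaks. Peaks under 20 nucleotides made up 47.1% of the Nckap5 peaks and 15.6% of the Pgbd5 peaks, against 34.3% of intronic peaks. Many of the narrow Nckap5 peaks were the lower-coordinate member of a touching pair, that is, the 3′ one on the minus strand. Of the 21 such pairs in Nckap5 the lower-coordinate peak was the narrower in 20, which is close to the 96.6% seen over all 4682 touching intronic pairs on the minus strand. On the plus strand, where the lower-coordinate peak is the 5′ one, it was the narrower in 91.3% of 2569 pairs. The narrower side thus went with the coordinate on both strands and not with the direction of the transcript. In Pgbd5, also on the minus strand, the lower-coordinate peak was the narrower in 11 of 16 pairs (68.8%), a lower share. The 2 peaks of a pair had the same sign in all 21 Nckap5 pairs and all 16 Pgbd5 pairs, with a median difference in log2 fold change of 0.23 and 0.41 per the authors' deposited table. Touching peaks share RNA and libraries and are not separate measurements. Merged, the Nckap5 peaks formed 47 stretches, of which 19 were enriched and 4 depleted, and the Pgbd5 peaks 61, of which 40 were enriched and none depleted.

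Compared with the series as a whole, the distribution of Pgbd5 was shifted upwards as a body and that of Nckap5 was split. Below 0 lay 6.49% of the Pgbd5 peaks and 33.8% of the Nckap5 peaks, against 76.3% of the 55304 other peaks. The 76 enriched peaks of both genes were 6.17% of all enriched peaks and 15% of the 508 enriched intronic ones, from 0.262% of the peaks. With all values centred on the median of the table, 1 Pgbd5 peak and 22 Nckap5 peaks lay below 0, and the rows of one sign in Nckap5 became 7, so the 5-row pattern belongs to the values as deposited.

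**Figure D4:**
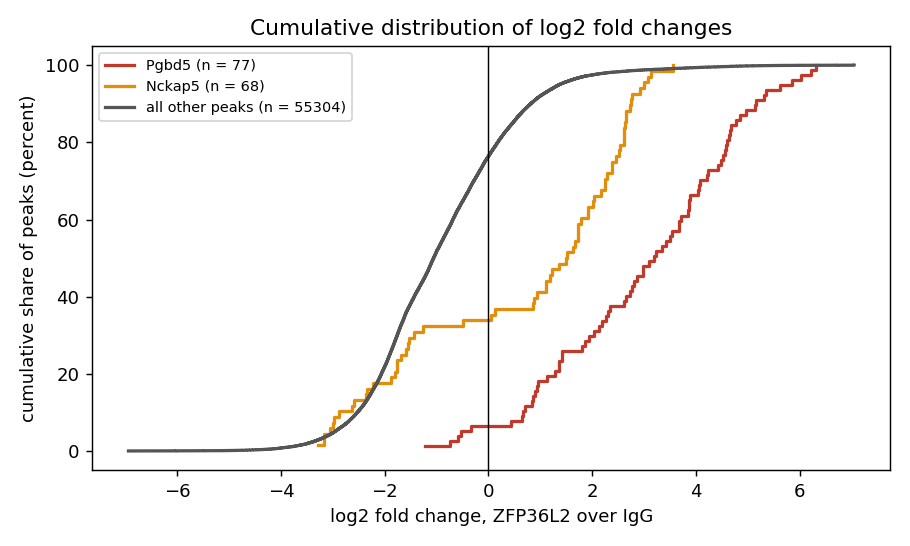
Cumulative share of peaks (percent) by log2 fold change of ZFP36L2 over IgG for Pgbd5 (77 peaks), Nckap5 (68) and all other peaks (55304). The Pgbd5 curve lies right of the others over nearly all of its range, and the Nckap5 curve has a flat part around 0, with 33.8% of its peaks below 0.

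Among the 127 gene names with at least 30 peaks, Pgbd5 held rank 3 by number of enriched peaks and rank 3 by their share, and Nckap5 ranks 6 and 5. Any enriched peak was present in 51 of the 127, and the median share enriched was 0. Likeness was measured as the distance between the shares of enriched and depleted peaks, in percentage points. The names nearest Pgbd5 were Gse1 (24.6 points), Nckap5 itself (28.6), Cyp11a1 (29.4) and Pakap (30.1), so none was close. Nearest Nckap5 were Gse1 (9.94 points), Pakap (10.8), Galnt2l (11.1) and Hipk2 (20.5). Gse1 encodes a coiled-coil protein of chromatin repressor complexes, Cyp11a1 the first enzyme of steroid synthesis, and Hipk2 a nuclear kinase. Gse1 and Galnt2l cannot be counted as separate, since 162 peaks carried both names, 94.7% of the Gse1 and 74% of the Galnt2l peaks.

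Nckap5 had 7 depleted peaks beside its 26 enriched ones, or 4 depleted stretches once touching peaks were merged. Gse1 had 69 enriched and 1 depleted of 171 peaks, Pakap 15 and 0 of 43, Galnt2l 68 and 4 of 219, and Hipk2 7 and 3 of 39. Calls in both directions were present in 32 of the 127 names, Macf1 (4 and 5 of 74) and Hspg2 (5 and 4 of 62) among them, which are named after their values were seen. By share depleted Nckap5 ranked 12 of 127. Along the genes, neighbouring stretches of merged peaks had a correlation of log2 fold change of 0.77 in Nckap5 over 47 stretches and 0.50 in Pgbd5 over 61, beside a median of 0.27 (range -0.54 to 0.82) over the 127 names. Neighbours share transcript, libraries and the peak calling, so these correlations are descriptions.

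**Figure D5:**
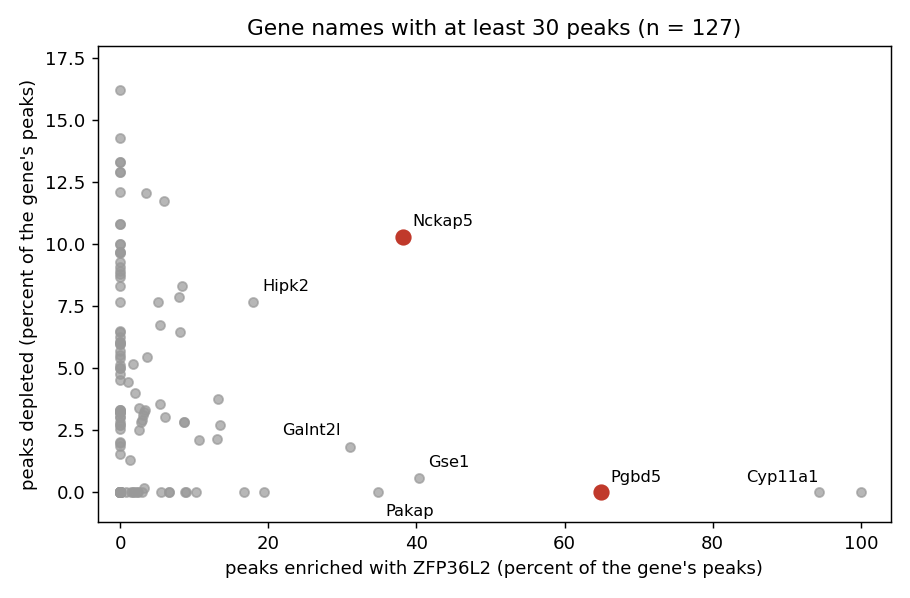
Share of peaks enriched (horizontal, percent) against share depleted (vertical, percent) for the 127 gene names with at least 30 peaks, one point per name, with Pgbd5 and Nckap5 in red and the names most like them labelled. Pgbd5 sits at 64.9% and 0%, Nckap5 at 38.2% and 10.3%, and no other name lies both farther right and higher than Nckap5.

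Peaks of other genes near Pgbd5 were mostly uncalled. Within 1000 kb on either side of its outermost peaks, 25 gene names had 111 peaks, with none enriched, 2 depleted and a highest log2 fold change of 2.06 per the authors' deposited table. That is 0% enriched and 1.8% depleted, against 2.22% and 5.44% of all peaks, and a share of 0 among so few peaks is close to that background. The nearest were Galnt2, a Golgi enzyme that starts O-linked glycosylation, at 24.9 kb with 16 peaks (median -1.02), and on the other side Cog2, a Golgi tethering subunit, at 100.1 kb with 3 peaks (median 0.89), and Agt, the angiotensin precursor, at 134.2 kb with 2 peaks (median 0.98), per the authors' deposited table. The name Galnt2l had 21 of its 219 peaks in the window, none of them called, and its 68 enriched peaks lay outside it. Gm15775, with 2 peaks, completed the nearest names on the lower side. Capn9, a calpain protease, had 2 peaks with a median of -0.74 per the authors' deposited table.

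Nckap5 stood in a sparser neighbourhood. Within 1000 kb on either side, 6 gene names had 25 peaks, with 0% enriched and 8% (2 peaks) depleted, shares that so few peaks do not set apart from those of all peaks, and a median of -1.78 per the authors' deposited table. Both depleted peaks belonged to Gpr39, a zinc-sensing receptor, whose nearest peak lay 54.6 kb from the outermost Nckap5 peak and whose 4 peaks ranged from -4.19 to -1.94 per the authors' deposited table. The other names on that side were Slc35f5, a transporter gene, and Actr3, a subunit of the actin-nucleating ARP2/3 complex, with medians of 0.26 and -2.13 per the authors' deposited table. On the other side were Mgat5, an N-glycan branching enzyme, with a median of -1.81 over 8 peaks per the authors' deposited table, and Gm37510 and Gm23734.

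Of 21 genes besides Pgbd5 that derive from transposases, 10 had peaks, 28 in all, with a median of -1.21 per the authors' deposited table. Of the 28, 2 (7.14%) were enriched and 1 (3.57%) depleted, against 2.22% and 5.44% of all peaks. The 2 enriched peaks were of Cenpb, which encodes the centromere box-binding protein derived from a pogo transposase. Its 7 peaks reached 3.45 (adjusted p = 2.9e-09, coding) per the authors' deposited table. The depleted peak was of Zmym6, with -3.24 (adjusted p = 0.0093, intronic) per the authors' deposited table. Pgbd1, the other piggyBac-derived gene on the list, had no peak, and neither did Rag1 and Rag2, the recombinases of antigen receptor genes.

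Among 15 relatives and partners of Nckap5 or its family in microtubule and NCK biology, 14 had peaks, 176 in all, with a median of -0.94 per the authors' deposited table. Of the 176, 6 (3.41%) were enriched and 18 (10.2%) depleted, against 2.22% and 5.44% of all peaks, and 10 of the 18 were of Nckap5l alone. Nckap5l, the closest relative, had 14 peaks, none of them enriched, with a median of -2.98 and a lowest value of -4.77 (adjusted p = 4.4e-10) per the authors' deposited table. Mapre1, which encodes the microtubule plus-end protein EB1, had both of its peaks enriched, at 3.64 and 3.78 per the authors' deposited table. Its paralogue Mapre3 had 2 of 6 peaks depleted, down to -3.44 (adjusted p = 0.016), and Mapre2 had none called of 3, per the authors' deposited table. Macf1, a giant linker of microtubules and actin, had calls in both directions, 4 enriched and 5 depleted of 74, from -4.89 to 3.47 per the authors' deposited table. Nck2, one of the NCK adaptors, had 1 of 3 peaks depleted (-3.47, adjusted p = 0.011) per the authors' deposited table, and the remaining 9 genes with peaks, Mapre2 among them, had none called. Only Nckap5 and Macf1 on this list had both kinds of call, and with 68 and 74 they also had the most peaks on it.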

How the data were processed

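RNA was taken from UV-crosslinked MLTC-1 cells, with 20 ug of RNA of integrity number 8.35 per immunoprecipitation, per the labels' protocols. Per the submitters' processing notes, processing used DESeq2 1.34.0, STAR 2.7.7a, cutadapt 3.2 and UMI-tools 1.1.1 on build mm10, listed without role or order. The sources used here do not say how peaks were called, how folds were normalized or whether inputs entered. The deposited table holds a log2 fold change per peak and −log10 values of p and adjusted p, per the file headers, and these p-values are the authors'. It has no counts, so no count model was fitted, and the adjusted p-values were converted from −log10 values rounded to 2 decimals. The IgG arm has 1 IP library, nothing says the libraries came from separate cultures, and which spread the p-values measure is unknown.

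Peaks were selected, called, merged where they touched and summarised with Python 3.11.15 and pandas 2.3.3. The selection and merging were checked on a small made-up set of peaks with known answers. Starts are printed 1-based. Start sequences are from RefSeq, GRCm38.p6; both genes matched by symbol. The rule for named genes took the 4 names most alike by call shares among names with at least 30 peaks, the 3 nearest neighbours on each side within 1000 kb, and members of 2 gene lists. The members and lists were chosen with earlier results of these data known. No genome sequence was used here, so peak sequences are not shown.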

Additional observations from a re-analysis of the deposited data

How the results depend on the processing

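Of the 6 counts and medians for the 2 genes, the counts kept within 1.5 times of their value at an adjusted p under 0.01 and at a log2 fold change of 2 in size. Centring, intronic peaks only and peaks of 1 gene name only could not change these counts and say nothing on their stability: all called members are intronic and carry 1 name, and centring keeps the deposited p-values and moves no called fold across the threshold. Merging touching peaks left 4 depleted stretches in Nckap5 where 7 peaks were depleted, because pairs then count once, and gave 1.66 as the median of Nckap5 in place of 1.50. With intronic peaks only, the median of Pgbd5 was 3.34 in place of 3.19, since the 4 exonic peaks fell away. Centring moved the median of all peaks by 1.06 on the log2 scale, and at 29.1% the share of enriched among called peaks over the table was almost that of the deposited values, 29%. Since the deposited p-values were kept there too, this share could hardly move and says nothing on stability. No paired analysis was possible because the values come from a deposited comparison with no column per library, and for the same reason no library could be left out. Without counts, a low fold at an uncalled peak cannot be separated from low coverage there.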
